A study of Mus musculus with 10 samples.

Results

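Ltf, Lcn2, Slpi, Wfdc2, Lyz1, Lyz2, Lpo, Camp, Pglyrp1 and Defb1 encode secreted proteins with which mucosal epithelium and granulocytes act on microbes, and their RNA was compared between lung squamous cell carcinoma (SCC) and wild-type (WT) lung of mice. These 10 genes, of 19096 named on the array, were taken by name, and 12 of the 41174 probes read them, 2 each for Ltf and Defb1 and 1 for each of the others. Each gene was represented by its brightest probe over the 10 arrays, and both probes of Ltf are given. Ltf was selected on its measured rise in SCC on these same arrays, so its values are a description and carry no test.

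Each group held 5 samples, with 1 single-colour Agilent array per sample, and the labels number them as replicates without saying that each came from a separate mouse. WT arrays held RNA of the whole lung of mice with the genotype Lkb1f/f, which carried the floxed Lkb1 allele without Cre, and SCC arrays held RNA of the whole lung tumor of CCSPiCreLkb1f/f mice, in which Cre driven by the promoter of the club cell gene CCSP (Scgb1a1) deletes Lkb1 in airway epithelium. All mice were of the strain B6.129, 13 months old and untreated, and the labels give no sex. Tumor tissue was thus set against whole lung, and in such bulk RNA fewer cells of a type and less RNA per cell cannot be told apart.

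Lactoferrin (Ltf) and lipocalin 2 (Lcn2) starve bacteria of iron, the first by binding iron itself and the second by binding the siderophores with which bacteria collect it. Lysozyme cuts the peptidoglycan of bacterial walls, PGLYRP1 binds it, lactoperoxidase (Lpo) makes an oxidant from hydrogen peroxide and thiocyanate, and the cathelicidin CAMP and the beta-defensin DEFB1 are cationic peptides that damage bacterial membranes. Secretory cells and glands of the airway release many of these proteins, and Ltf, Lcn2, Camp, Pglyrp1 and Lyz2 are also stored in granules of neutrophils or made by macrophages.

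The labelled tissue was checked with marker genes. All 9 squamous markers tested (among them Krt5 and Trp63) were called higher in SCC, 5 of them tested only because their SCC arrays were bright enough, and their mean log2 intensity was 4.05 to 4.72 on the WT arrays and 10.01 to 13.93 on those of SCC. The lowest of these, 10.01, was that of SCC replicate 2, against 13.58 to 13.93 on the other 4. SCC replicate 5 differed in another way, with 90.2% of probes well above background against 71.0% to 74.5% on the other arrays. For the called genes named here, a difference that moved by over 1.5 times when an array was left out is given without that array. The arrays lay on 3 slides, with WT replicates 1 to 4 on the first, WT replicate 5 and SCC replicates 1 to 3 on the second, and SCC replicates 4 and 5 on the third, so that only the second slide held both groups. A fit with slide as a block therefore rests on a single WT array (WT replicate 5) against SCC replicates 1 to 3, with its spread taken within all 3 slides. Stk11, which encodes Lkb1, is not analysed here.

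The 250 bases upstream of the start of 4 genes are shown because Ltf, Lcn2, Slpi and Pglyrp1 were higher on every SCC array than on any WT array and have a promoter in the RefSeq table (build GRCm38.p6), which held 9 of the 10 genes. Each is written 5′ to 3′ on the strand of its gene, and capitals mark a match to a C/EBP motif (TTNNGCAA, either strand) in the first 3 and to an NF-kB motif (GGANTTTCC, either strand) in Pglyrp1. Ltf lies at chr9:111019042-111019291 (plus strand), Lcn2 at chr2:32387740-32387989 (minus strand), Slpi at chr2:164356508-164356757 (minus strand) and Pglyrp1 at chr7:18884440-18884689 (plus strand).
Ltf: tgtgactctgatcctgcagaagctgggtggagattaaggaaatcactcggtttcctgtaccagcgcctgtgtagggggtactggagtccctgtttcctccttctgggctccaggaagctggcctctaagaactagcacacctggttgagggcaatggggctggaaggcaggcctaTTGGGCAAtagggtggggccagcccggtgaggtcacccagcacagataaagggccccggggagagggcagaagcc
Lcn2: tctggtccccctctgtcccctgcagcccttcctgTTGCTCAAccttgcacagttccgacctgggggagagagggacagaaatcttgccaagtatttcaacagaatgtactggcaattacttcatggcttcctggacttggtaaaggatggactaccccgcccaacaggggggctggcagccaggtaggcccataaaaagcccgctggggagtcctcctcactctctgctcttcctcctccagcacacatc
Slpi: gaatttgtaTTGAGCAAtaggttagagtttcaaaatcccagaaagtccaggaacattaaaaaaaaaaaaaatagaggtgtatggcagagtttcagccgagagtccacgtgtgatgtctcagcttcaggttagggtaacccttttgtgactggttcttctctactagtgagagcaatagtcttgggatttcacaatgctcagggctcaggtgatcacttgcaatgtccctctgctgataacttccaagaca
Pglyrp1: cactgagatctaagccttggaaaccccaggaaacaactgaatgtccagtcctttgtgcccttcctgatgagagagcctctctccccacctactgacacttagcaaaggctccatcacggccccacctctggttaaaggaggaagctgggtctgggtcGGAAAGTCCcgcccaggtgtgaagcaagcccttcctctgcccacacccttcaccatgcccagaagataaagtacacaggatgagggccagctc

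The C/EBP letters lay 75 to 68 bases upstream of the start in Ltf, 216 to 209 in Lcn2, 241 to 234 in Slpi and 209 to 202 in Lyz1, so 4 of the 9 promoters held a match. Over 32851 mouse promoters of the same length, 9.56% held one. The NF-kB letters were found in Pglyrp1 alone among the 9, 93 to 85 bases upstream, and in 1.07% of all promoters. AP-1 letters (TGANTCA, either strand) and STAT letters (TTCNNNGAA, either strand) were in none of the 9 windows and in 6.75% and 7.02% of all promoters. The motifs were chosen with these promoters in view, and a match describes letters in this window and no binding.

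**Figure D1:**
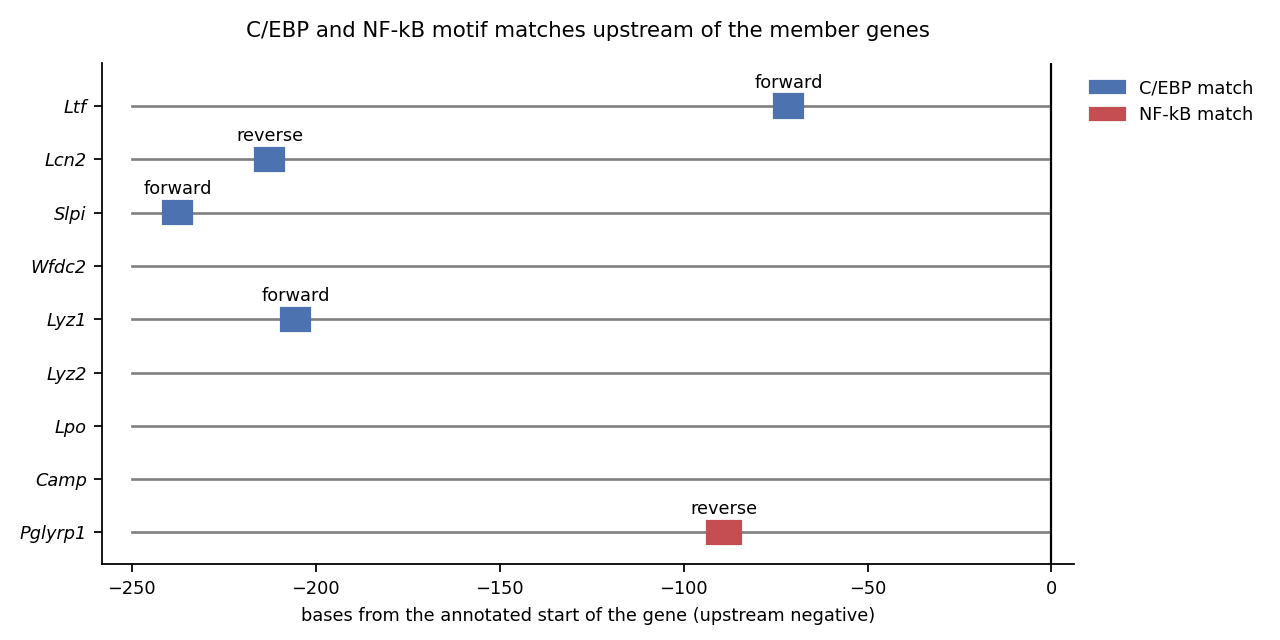
Matches to the C/EBP (blue) and NF-kB (red) letters in the 250 bases upstream of the start of the 9 genes with a promoter in the table, with the x axis in bases from the start and the orientation written above each match. Ltf, Lcn2, Slpi and Lyz1 each held 1 C/EBP match and Pglyrp1 held 1 NF-kB match, while Wfdc2, Lyz2, Lpo and Camp held neither.

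Lyz1 and Lyz2 lie next to each other with no coding gene between them, and the 110 bases before their starts are shown to make plain how alike the paired genes are. Lyz1 lies at chr10:117292869-117292978 and Lyz2 at chr10:117282273-117282382, both on the minus strand, and capitals mark the bases that differ.
Lyz1: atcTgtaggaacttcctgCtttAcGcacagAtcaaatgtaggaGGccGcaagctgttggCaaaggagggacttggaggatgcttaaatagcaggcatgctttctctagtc
Lyz2: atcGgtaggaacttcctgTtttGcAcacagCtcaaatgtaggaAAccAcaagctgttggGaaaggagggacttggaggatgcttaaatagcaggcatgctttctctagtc
Of the 110 bases 101 were identical (91.8%), among them all of the last 50 before the start. The transcripts are near-identical copies as well, and a probe for one may also capture RNA of the other, so the values given for each are uncertain.

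Of the 9 genes other than Ltf, 4 were called higher in SCC (Lcn2, Slpi, Pglyrp1 and Defb1, the last of which entered the test only through its SCC arrays) and 0 lower, where a call required an adjusted p below 0.05 from limma, over all 30374 probes tested, and at least a 2-fold difference. Over the brightest probe of all 15586 genes tested, 11.6% were called higher, 13.4% lower and 24.9% in either direction, and over all tested probes the shares were 9.92% higher, 13% lower and 22.9% in all. Lyz1 passed the adjusted p with a lower value in SCC, as 28.4% of all genes tested did, without reaching 2-fold, and Wfdc2, Lyz2, Lpo and Camp did not pass. The WT and SCC arrays did not overlap for 5 of the 9 genes, 4 of them higher in SCC, against 41.4% of all genes tested and 18.9% higher. Of the 9, 7 were well above background on all 10 arrays, while Camp and Defb1 entered the test only through their SCC arrays.

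**Figure D2:**
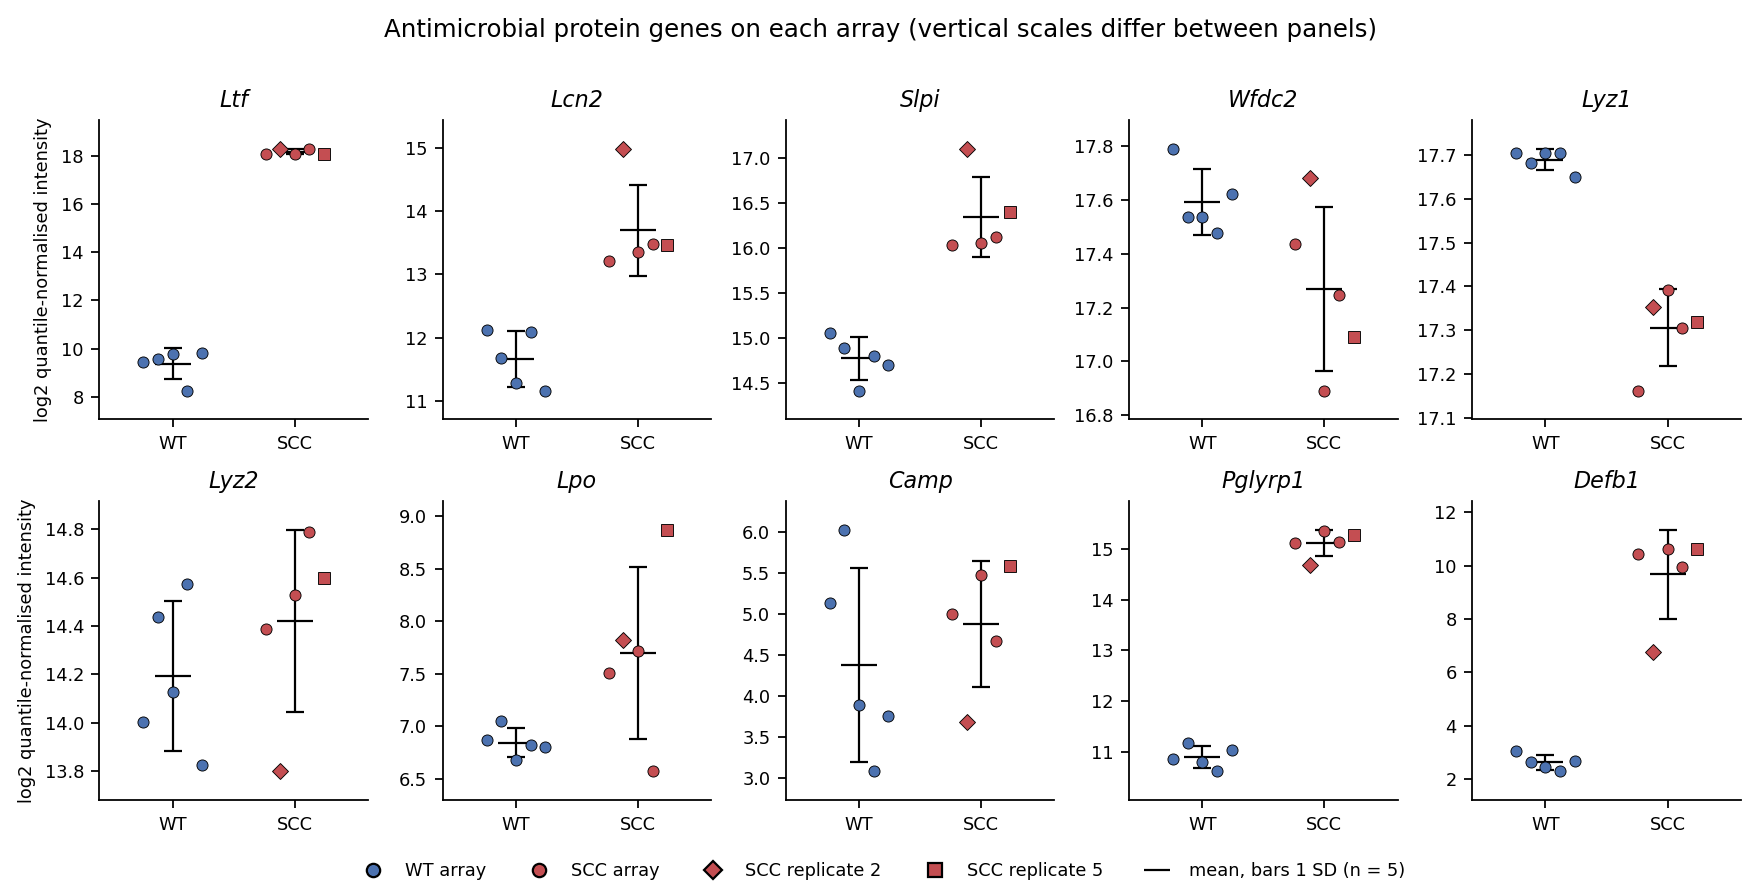
Log2 quantile-normalised intensity (y axis, with its own scale in each panel) of the brightest probe of each of the 10 genes on the 5 WT (blue) and 5 SCC (red) arrays, with the group mean and bars of 1 SD. Ltf, Lcn2, Slpi, Pglyrp1 and Defb1 lay higher on all 5 SCC arrays than on any WT array, Lyz1 lay lower on all 5, and the other 4 overlapped. SCC replicate 2 (diamond) was the highest SCC array for Lcn2, Slpi and Wfdc2 and the lowest for Lyz2, Camp, Pglyrp1 and Defb1.

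The 2 iron-withholding genes come first. Log2 intensity of the brightest Ltf probe was 9.44, 9.59, 9.78, 8.26 and 9.81 on WT replicates 1 to 5 and 18.10, 18.29, 18.10, 18.29 and 18.10 on SCC replicates 1 to 5. The SCC arrays lay within 0.19 of each other, and WT replicate 4 was the lowest of its group. SCC minus WT was 8.80, a mean of 18.18 ± 0.10 against 9.37 ± 0.64 (SD, n = 5), or 446-fold. The second Ltf probe read 8.18, 8.35, 8.63, 7.0 and 8.66 on the WT arrays and 18.01, 17.96, 17.75, 18.01 and 17.96 on the SCC arrays, a difference of 9.78. It too was lowest in WT on replicate 4.

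Ranked by brightness among the 41174 probes, the brightest Ltf probe stood at 11822 to 17244 on the WT arrays and at 5 or 6 on every SCC array. Quantile normalisation gives probes of the same rank the same value on every array. Before normalisation the SCC arrays read 17.94 to 18.34 on the log2 scale and the WT arrays 8.06 to 9.91. No spot was flagged as saturated on any array.

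Lcn2 rose in SCC. Its log2 intensity was 12.13, 11.68, 11.29, 12.08 and 11.17 on WT replicates 1 to 5 and 13.21, 14.98, 13.35, 13.47 and 13.46 on SCC replicates 1 to 5. Every SCC array lay above every WT array, and SCC replicate 2 lay well above the other 4. The difference was 2.03 ± 0.35 (SE; 95% confidence interval 1.25 to 2.81), or 4.08-fold, with a limma adjusted p of 0.00110. Without SCC replicate 2 it was 1.71 with a limma adjusted p of 0.000153, and with slide as a block it was 2.68 with a limma adjusted p of 0.0362. That last fit rests on WT replicate 5, the lowest WT array, against SCC replicates 1 to 3, which include the highest.

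Of 12 other genes of iron handling, all tested, 3 were called higher (25%, against 11.6% over all genes tested) and 1 lower, with a median difference of 0.22 against -0.04 over all genes tested. Slc22a17, a receptor for Lcn2, did not pass, with a difference of -0.20 and a limma adjusted p of 0.325. Itln1, a lectin also known as a lactoferrin receptor, was at 6.53 to 6.94 on the WT arrays and 7.53 to 10.04 on the SCC arrays, a difference of 2.31 (limma adjusted p 0.00211).

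Transferrin (Trf), the iron carrier of plasma and a relative of Ltf, rose by 1.28 (limma adjusted p 0.000113) and the phagosomal metal transporter Slc11a1 by 1.93 (limma adjusted p 0.0137). The groups did not overlap for Trf. For Slc11a1 they did, since SCC replicate 2, at 9.66, read below all WT arrays, whose lowest was 9.69. Hamp, which encodes the iron hormone hepcidin, read 7.28 to 11.70 on the WT arrays, through which alone it entered the test, and 2.10 to 6.92 on the SCC arrays, of which 3 read it well above background. It was called lower, and its fitted difference of -5.80 (limma adjusted p 0.00129) rests in part on readings below background and is no measure of the fold. Without SCC replicate 2 that difference was -6.53, and without WT replicate 1 it was -6.42. With slide as a block Trf passed (limma adjusted p 0.0255) and Hamp, Itln1 and Slc11a1, with differences of -4.61, 2.26 and 1.84, did not (limma adjusted p 0.102, 0.140 and 0.245).

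Slpi and Wfdc2 encode whey acidic protein (WAP) domain proteins of airway secretions, and lie on one chromosome with 7 coding genes between them. SLPI inhibits neutrophil elastase and cathepsin G and protects the mucosa from them, while WFDC2 (HE4) is an abundant product of the normal airway. Slpi rose in SCC and Wfdc2 did not pass the test.

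Slpi read 15.06, 14.89, 14.42, 14.81 and 14.71 on WT replicates 1 to 5 and 16.04, 17.10, 16.06, 16.13 and 16.40 on SCC replicates 1 to 5. All SCC arrays exceeded all WT arrays, with SCC replicate 2 highest. The difference was 1.57 ± 0.21 (SE; 95% confidence interval 1.09 to 2.05), or 2.96-fold, with a limma adjusted p of 0.000288. It was 1.38 without SCC replicate 2, and 1.69 with slide as a block, with a limma adjusted p of 0.0425.

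Wfdc2 was among the brightest probes of both groups, at rank 11 to 25 on the WT arrays and 15 to 68 on the SCC arrays. It read 17.79, 17.54, 17.54, 17.48 and 17.62 on WT replicates 1 to 5 and 17.44, 17.68, 16.89, 17.25 and 17.09 on SCC replicates 1 to 5. SCC replicate 2 lay within the WT range and the other 4 SCC arrays below it. The difference was -0.32 ± 0.15 (SE; 95% confidence interval -0.65 to 0.01; limma adjusted p 0.0958). Without SCC replicate 2 it was -0.43 and passed at a limma adjusted p of 0.0138. With each array scaled to its 75th percentile in place of quantile normalisation it was 0.01 (limma adjusted p 0.966), so no direction is given for Wfdc2.

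A list of 22 WAP-domain genes and neighbours, which also held the Kazal inhibitor Spink5 and the seminal vesicle genes Svs3a and Svs4, had 14 genes tested. Of these, 8 were called higher in SCC (57.1%, against 11.6% over all genes tested) and 2 lower, and the median difference was 1.68. Wfdc3 rose from 7.27 to 8.10 on the WT arrays to 10.92 to 12.38 on the SCC arrays, a difference of 3.99 (limma adjusted p 6.55e-06). Wfdc5 was not well above background on any WT array and was so on all 5 SCC arrays, where it read 5.88 to 11.42, at least 69.4-fold higher (limma adjusted p 0.000278). It entered the test only through the SCC arrays, as did Wfdc15a among the 8, while the 2 called lower (Wfdc6a and Eppin) entered only through the WT arrays. Their differences were -1.60 and -1.83. Both lower calls were lost with scaling to the 75th percentile, at -1.39 and -1.53. They were also lost with slide as a block, at -1.44 and -2.19 (limma adjusted p 0.298 and 0.239). The call of Eppin was lost as well when any of 6 of the 10 arrays was left out.

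Wfdc17 rose by 3.45 (limma adjusted p 0.000606) and Wfdc18 by 3.07 (limma adjusted p 0.00233). Within the SCC group replicate 2 gave the lowest reading of Wfdc5, Wfdc17 and Wfdc18 and the highest of Wfdc3. For Wfdc18 it lay at 6.43, inside the WT range of 5.21 to 6.53. Without SCC replicate 2 the fitted difference of Wfdc5 moved from 7.39 to 8.46, and that of Wfdc17 was 3.99 and of Wfdc18 3.69. With slide as a block Wfdc3 and Wfdc5 passed (limma adjusted p 0.00412 and 0.0330) and Wfdc17 and Wfdc18, with differences of 3.45 and 3.11, did not (limma adjusted p 0.0537 and 0.119).

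In a list of 6 serine proteases, 4 were tested and 2 called higher (50%, against 11.6% over all genes tested). Cathepsin G (Ctsg), a protease that SLPI inhibits, read 4.89 to 5.82 on the WT arrays and 5.19 to 5.93 on the SCC arrays and did not pass (0.11, limma adjusted p 0.663). Neutrophil elastase (Elane) was well above background on 1 of the 10 arrays and was not tested. Of the epithelial proteases, Klk7, which takes part in shedding of the cornified layer, rose by 1.74 (limma adjusted p 0.00990), and Tmprss4, a membrane protease, rose by 1.72 (limma adjusted p 5.08e-05). The groups did not overlap for Tmprss4, while SCC replicate 2 lay within the WT range for Klk7, whose call was lost with slide as a block (1.25, limma adjusted p 0.317).

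Among the genes that act on peptidoglycan, Pglyrp1 rose and neither lysozyme was called. Pglyrp1 read 10.85, 11.18, 10.79, 10.61 and 11.02 on WT replicates 1 to 5 and 15.12, 14.69, 15.36, 15.13 and 15.27 on SCC replicates 1 to 5. The groups were far apart and each was tight, with SCC replicate 2 the lowest SCC array. The difference was 4.23 ± 0.15 (SE; 95% confidence interval 3.89 to 4.56), or 18.7-fold, with a limma adjusted p of 2.13e-07. With slide as a block it was 4.03, with a limma adjusted p of 0.000818.

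Lyz1 read 17.70, 17.68, 17.70, 17.70 and 17.65 on WT replicates 1 to 5 and 17.16, 17.35, 17.39, 17.31 and 17.32 on SCC replicates 1 to 5. Every SCC array was slightly below every WT array, at rank 31 to 45 on the SCC arrays and 14 to 17 on the WT arrays. The difference was -0.38 ± 0.07 (SE; 95% confidence interval -0.55 to -0.22), or 0.767-fold, with a limma adjusted p of 0.00222, short of the 2-fold required. It did not hold with scaling to the 75th percentile, at -0.09 (limma adjusted p 0.495), or with slide as a block, at -0.35 (limma adjusted p 0.170).

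Lyz2 read 14.00, 14.44, 14.12, 14.57 and 13.83 on WT replicates 1 to 5 and 14.39, 13.80, 14.53, 14.79 and 14.60 on SCC replicates 1 to 5. The groups overlapped, and SCC replicate 2 was the lowest of all 10 arrays. The difference was 0.23 ± 0.21 (SE; 95% confidence interval -0.24 to 0.69; limma adjusted p 0.383), an interval that excludes a 2-fold change in either direction.

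Of 13 other genes listed for lysozyme and peptidoglycan recognition, 9 were tested, 5 were called higher (55.6%, against 11.6% over all genes tested) and 1 lower (against 13.4%), and the median difference was 1.40. Of these 6 calls, 3 (Pglyrp2, Pglyrp3 and Lyzl1) were lost when single arrays were left out. Cd14, the co-receptor for bacterial lipopolysaccharide, rose by 2.56 (limma adjusted p 5.35e-06), from 11.21 to 11.59 on the WT arrays to 13.57 to 14.52 on the SCC arrays. SCC replicate 2 was the highest of these. Nod2, an intracellular sensor of peptidoglycan fragments, rose by 1.65 (limma adjusted p 0.00181), and SCC replicate 2, at 8.81, was there the lowest SCC array. Cd14 passed with slide as a block (limma adjusted p 0.00641) and Nod2 did not (1.28, limma adjusted p 0.18).

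Nod1, the related sensor, read 0.78 lower (limma adjusted p 0.000103), short of 2-fold. Pglyrp2, an amidase that cuts peptidoglycan, fell by 1.04 (limma adjusted p 0.00245), while without SCC replicate 2 it was at -0.93 and no longer reached 2-fold. The call was also lost without WT replicate 1, WT replicate 4 or SCC replicate 5. Pglyrp3, not well above background on any WT array, and the lysozyme-like gene Lyzl1, well above it on 3, were called higher at limma adjusted p of 0.0241 and 0.0321. Both entered the test only through their SCC arrays. Each of these calls was lost when any of 6 of the 10 arrays was left out, and neither they nor Pglyrp2 passed with slide as a block (limma adjusted p 0.173 to 0.679). The differences there were 1.93 for Pglyrp3, 0.55 for Lyzl1 and -0.91 for Pglyrp2.

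Lpo was well above background on all 10 arrays. It read 6.87, 7.05, 6.68, 6.82 and 6.81 on WT replicates 1 to 5 and 7.51, 7.82, 7.72, 6.57 and 8.87 on SCC replicates 1 to 5. SCC replicate 4 lay below all WT arrays and the other 4 SCC arrays above them, with SCC replicate 5 highest. The difference was 0.85 ± 0.34 (SE; 95% confidence interval 0.09 to 1.62; limma adjusted p 0.0627). Without SCC replicate 4 it was 1.13 and passed (limma adjusted p 0.00736), and without SCC replicate 5 it was 0.56.

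A peroxidase needs hydrogen peroxide and anions at the airway surface. Of 12 genes listed for peroxidases and for this supply, 6 were tested, 3 were called higher (50%, against 11.6% over all genes tested) and 0 lower, with a median difference of 2.61. Duox1, a peroxide-producing oxidase, rose by 4.36 (limma adjusted p 0.000220) and Duoxa2, the maturation factor of the paired oxidase, by 6.07 (limma adjusted p 0.00212). Slc26a4 (pendrin), which carries thiocyanate and other anions, rose by 4.75 (limma adjusted p 0.00108), from 8.95 to 10.58 on the WT arrays to 12.10 to 16.44 on the SCC arrays.

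For these 3 genes the groups did not overlap, and SCC replicate 2 was the lowest SCC array of each. Without that array the difference of Duox1 was 4.97, that of Slc26a4 5.46 and that of Duoxa2, which read 5.82 on it, 7.36. With slide as a block Duoxa2 did not pass (5.16, limma adjusted p 0.149), and Duox1 and Slc26a4 lay near the threshold (limma adjusted p 0.0448 and 0.0470). For Slc26a4 that fit gave 5.89 and rests on WT replicate 5, which read 8.95 against 10.41 to 10.58 on the other WT arrays.

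The peptide genes come next. Camp did not pass the test, and Defb1 rose. Camp was near background, well above it on WT replicates 1 and 2 and on SCC replicates 1, 3, 4 and 5. It read 5.13, 6.02, 3.89, 3.08 and 3.76 on WT replicates 1 to 5 and 5.00, 3.68, 5.47, 4.68 and 5.58 on SCC replicates 1 to 5, so the groups overlapped throughout. The difference was 0.50 ± 0.57 (SE; 95% confidence interval -0.78 to 1.78; limma adjusted p 0.485), and with this spread a rise of 2-fold is not excluded.

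Defb1 was not well above background on any WT array and was so on all 5 SCC arrays. Its brighter probe read 3.06, 2.64, 2.46, 2.28 and 2.68 on WT replicates 1 to 5 and 10.43, 6.75, 10.61, 9.95 and 10.63 on SCC replicates 1 to 5. SCC replicate 2 was far below the other SCC arrays and still above all WT arrays. Defb1 was at least 49.7-fold higher in SCC (limma adjusted p 4.07e-05), the bound being set against the lowest signal well above background on each WT array. The second probe gave at least 40.3-fold (limma adjusted p 4.38e-05).

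The fitted Defb1 difference of 7.05 rests on WT values below background and is no bound. It was 7.78 without SCC replicate 2 and 6.58 with slide as a block (limma adjusted p 0.0204). With normexp background correction, which adds an offset to every spot, it was 2.97 (limma adjusted p 0.000337). The direction was the same and the size smaller.

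Of 25 other defensins and antimicrobial peptides listed, 13 were tested, 4 called higher (30.8%, against 11.6% over all genes tested) and 1 lower (against 13.4%), with a median difference of 1.07. Of the 4, Defb14 and S100a7a entered the test only through their SCC arrays. Defb14, another beta-defensin, was well above background on 1 WT array and 4 SCC arrays. It read 1.84 to 4.07 on the WT arrays and up to 13.37 on the SCC arrays, while SCC replicate 2, at 1.83, lay below them all. The fitted difference, 8.14 (limma adjusted p 0.00909), rests on WT values mostly below background and is no measure of the fold. It was 10.40 without SCC replicate 2 and 7.51 without SCC replicate 4, and did not pass with slide as a block (6.51, limma adjusted p 0.292).

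S100a7a, an antimicrobial S100 protein of squamous epithelium, was not well above background on any WT array and was so on 4 SCC arrays. It was called higher in SCC (limma adjusted p 0.00492), and SCC replicate 2, at 3.09 and not well above background, lay within the WT range. Its fitted difference of 6.24 rests in part on readings below background in both groups and is no measure of the fold. It was 7.77 without SCC replicate 2, and did not pass with slide as a block (5.23, limma adjusted p 0.225). Reg3g, a lectin that binds gram-positive bacteria, went the other way among the SCC arrays. It read 8.56 to 17.28 on the SCC arrays, highest on replicate 2, and 2.36 to 6.71 on the WT arrays, a difference of 7.62 (limma adjusted p 0.00774) in a fit without SCC replicate 3, which had no value. It ranged from 6.14 (limma adjusted p 0.0123) without SCC replicate 2 to 9.05 without SCC replicate 4, was 6.90 without WT replicate 4, 6.75 without SCC replicate 5 and 8.52 without SCC replicate 1, and did not pass with slide as a block (limma adjusted p 0.237).

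S100a8, a calprotectin subunit that neutrophils hold in large amounts, was called at 1.77 (limma adjusted p 0.0321). The call was lost without any of 7 of the 10 arrays and with slide as a block (1.87, limma adjusted p 0.284). Its partner S100a9 did not pass (1.07, limma adjusted p 0.126), and both passed without SCC replicate 2, at 2.38 (limma adjusted p 4.88e-05) and 1.64 (limma adjusted p 4.97e-05). The ribonuclease Rnase4 fell by 1.38 (limma adjusted p 5.57e-05).

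Genes of airway mucosal secretion and of its regulation were counted beside them. Of 14 secretion genes, all tested, 10 were called higher (71.4%, against 11.6% over all genes tested) and 0 lower, with a median difference of 3.47. Dmbt1, which agglutinates bacteria, rose from 4.40 to 4.74 on the WT arrays to 11.82 to 14.38 on the SCC arrays, a difference of 8.58 (limma adjusted p 2.15e-06). Muc5b, a gel-forming mucin, rose by 7.40 (limma adjusted p 2.83e-05), and Bpifa1, an airway surface protein that binds lipopolysaccharide, by 5.52 (limma adjusted p 0.00258). Tff2, a trefoil peptide of mucus, read 2.34 to 5.87 on the WT arrays and 10.93 to 17.79 on the SCC arrays and was called higher (limma adjusted p 0.000231). SCC replicate 2 was the highest SCC array for Muc5b, Tff2 and Bpifa1, at 17.44, 17.79 and 13.93.

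Tff2 was well above background on 2 WT arrays and entered the test only through the SCC arrays. Its fitted difference of 9.63 rests on WT values mostly below background and is no measure of the fold. It was 8.65 without SCC replicate 2 and 10.37 without SCC replicate 3. That of Bpifa1 was 4.77 without WT replicate 4 and 6.33 without SCC replicate 4. Tff2 and Bpifa1, with differences of 7.60 and 4.94, did not pass with slide as a block (limma adjusted p 0.0810 and 0.138), while Dmbt1 and Muc5b did (limma adjusted p 0.00391 and 0.0201).

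Of 19 listed inducers and regulators, 13 were tested, 3 called higher (23.1%, against 11.6% over all genes tested) and 0 lower, with a median difference of 0.56. Nfkbiz, which encodes a nuclear cofactor of NF-kB known to act on Lcn2, rose by 2.11 (limma adjusted p 5.21e-05), and the epithelial ETS factors Elf3 and Ehf by 4.01 (limma adjusted p 2.29e-06) and 3.39 (limma adjusted p 3.54e-07). The C/EBP factors Cebpb and Cebpd did not pass, at 0.31 (limma adjusted p 0.0925) and -0.27 (limma adjusted p 0.143). Without SCC replicate 2 Cebpb passed the adjusted p at 0.44 (limma adjusted p 0.00251), short of 2-fold. Cebpd did not (-0.35, limma adjusted p 0.0542). Il17a and Il17c, cytokine inducers of these genes, were well above background on at most 1 array each.

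**Figure D3:**
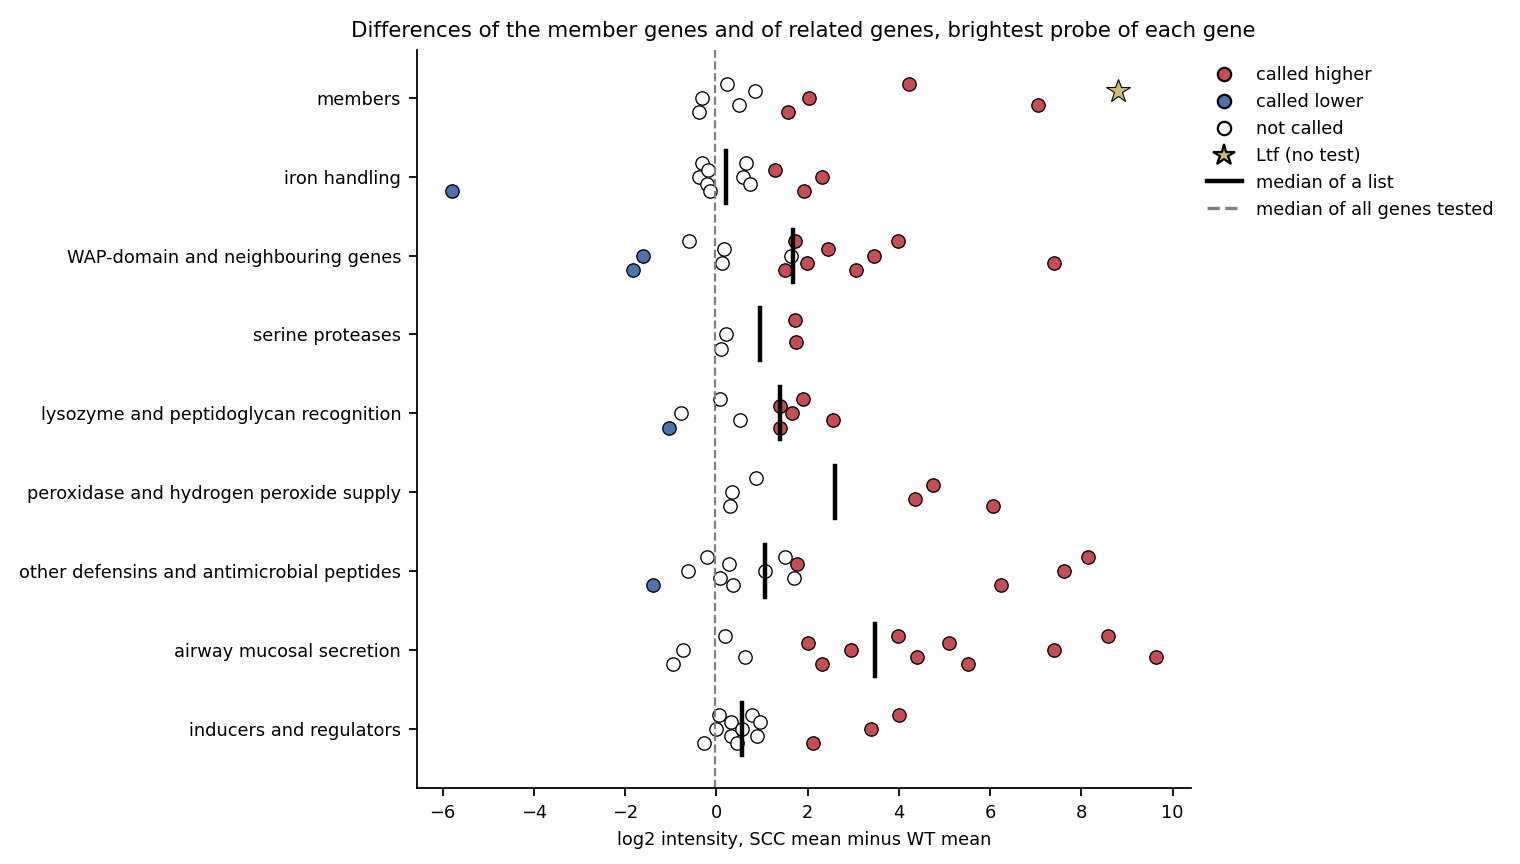
SCC minus WT difference in log2 intensity (x axis) of the 10 genes and of the tested genes of 8 related lists, 1 point per gene at its brightest probe, filled where called and open where not, with a star for Ltf, which was not tested. Thick bars mark each list's median, which runs from 0.22 for iron handling to 3.47 for airway mucosal secretion, and the dashed line marks the median of -0.04 over all genes tested.

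Over the 8 lists together, 122 genes were listed, 106 had a probe and 84 were tested. Of these, 37 were called higher and 5 lower, or 50% in all against 24.9% over all genes tested, with a median difference of 0.92. Of the 42 called, 10 had entered the test through 1 group alone, 7 through SCC and 3 through WT, so that the filter itself favoured a difference. In a count added after the data were seen, among the 70 tested that were bright enough in both groups 30 were called higher and 2 lower, or 45.7% in all, against 22.6% of the 14599 such genes overall. Leaving out each array in turn, 37 of the 42 kept their call in every fit. With slide as a block 17 of the 42 passed, among them Trf, Wfdc3, Wfdc5, Cd14, Dmbt1, Muc5b, Nfkbiz, Elf3 and Ehf. With slide as a random block in place of a fixed one, 42 related genes were called.

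SCC replicate 2 divided the 10 genes. Relative to the mean of the other 4 SCC arrays it was 1.60 higher for Lcn2, 0.94 for Slpi and 0.52 for Wfdc2. It was 3.65 lower for Defb1, 1.50 for Camp, 0.78 for Lyz2 and 0.53 for Pglyrp1. Ltf differed there by 0.14 at one probe and 0.03 at the other, Lyz1 by 0.06 and Lpo by 0.15. With scaling to the 75th percentile, the brightest Ltf probe read 18.13 on SCC replicate 2 and 18.09 to 18.48 on the other 4. No test sets 1 array against 4, and these are the values of a single array.

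Several marker lists shifted on the same array. Over all genes tested 11.6% were called higher and 13.4% lower. The neutrophil list had 8 of 15 genes called higher (53.3%) and 1 lower, and its mean log2 intensity was 9.30 to 10.04 on the WT arrays, 9.52 on SCC replicate 2 and 10.98 to 11.29 on the other SCC arrays. The macrophage list had 6 of 13 called higher (46.2%) and 1 lower, with means of 11.89 to 12.23 on the WT arrays, 11.84 on SCC replicate 2 and 12.70 to 12.87 on the others. The goblet and gland list had all 9 tested genes called higher, 2 of them (Clca1 and Foxa3) tested only through their SCC arrays, with means of 5.16 to 5.99 on the WT arrays and 9.25 to 11.12 on the SCC arrays, highest on replicate 2. Of its 10 genes, 7 read highest in SCC on replicate 2 and 2 read lowest there, Clca1 at 6.86 and Fcgbp at 7.89. The alveolar type 2 list had means of 13.99 to 14.24 on the WT arrays, 13.87 on SCC replicate 2 and 13.15 to 13.40 on the other SCC arrays, and 6 of its 8 genes read highest in SCC on replicate 2.

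Of the markers of immature granules, which neutrophils hold early in their development, 3 were tested and 0 called in either direction, and Elane was well above background on 1 array. The club cell list had 2 of 8 called higher (25%) and 3 lower, and the alveolar type 2 list 0 higher and 1 lower of 8. On SCC replicate 2, where the neutrophil mean lay within the WT range and the macrophage mean just below it, the 5 genes that neutrophils or macrophages also make differed among themselves. Camp, at 3.68, and Lyz2, at 13.80, were at their lowest SCC values and below their WT means, by 0.70 and 0.40. Pglyrp1 was also at its lowest SCC value, 14.69, which was 3.80 above the WT mean. Lcn2 was at its highest, 14.98, and Ltf, after quantile normalisation, lay within 0.19 of the other SCC arrays. The part of neutrophils, macrophages or alveolar type 2 cells in these values was not tested.

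**Figure D4:**
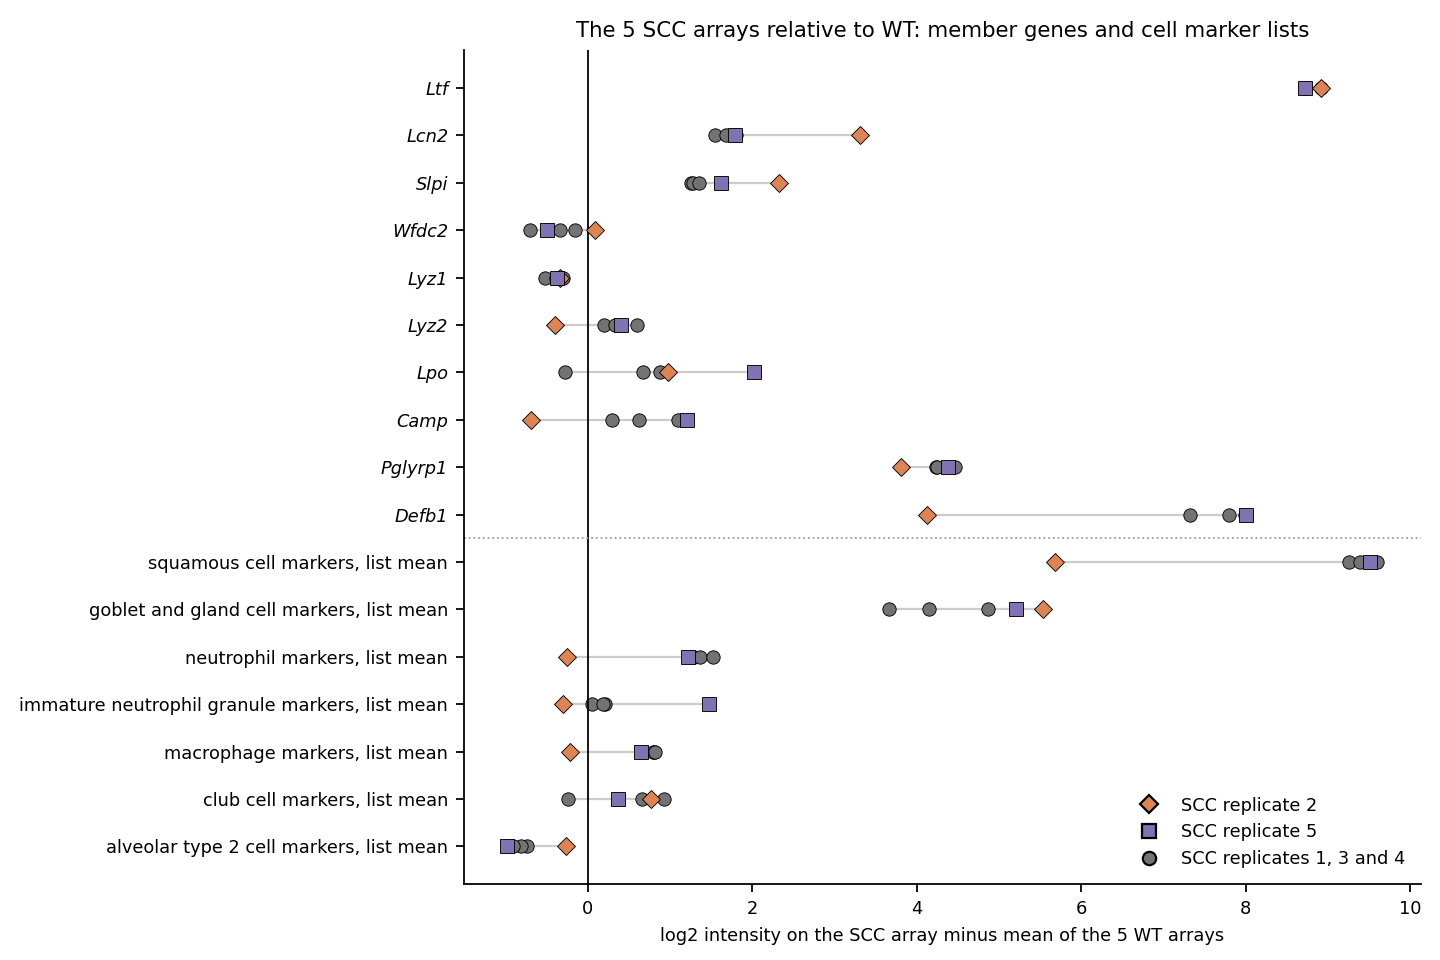
Log2 intensity on each SCC array minus the mean of the 5 WT arrays (x axis) for the 10 genes and for the mean of each of 7 cell marker lists, with SCC replicate 2 as orange diamonds, SCC replicate 5 as purple squares and the other SCC arrays as grey circles. SCC replicate 2 gave the lowest SCC values of Defb1, Pglyrp1, Camp and Lyz2 and of the squamous, neutrophil and macrophage means, and the highest of Lcn2, Slpi, Wfdc2 and the goblet and gland and alveolar type 2 means. Ltf, at rank 5 or 6 on each SCC array, lay within 0.19 on all 5 after quantile normalisation.

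The genes whose pattern over the 10 arrays was most like that of Ltf were ranked by the mean absolute difference in log2 intensity after each gene was centred on its own mean. This uses the values by which Ltf was chosen, and mostly finds genes with a step of like size between the groups. Of 15585 genes compared, the first 5 were Arl14, Syt8, Trp63, Sox21 and Dmbt1. No WT array read Arl14, Syt8 or Sox21 well above background, so that their distances from Ltf are not given, while that of Trp63 was 0.68 and that of Dmbt1 0.70. Trp63, the squamous lineage factor, read 4.97 to 6.0 on the WT arrays and 12.13 to 13.45 on the SCC arrays.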

How the data were processed

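RNA of 5 WT lungs and 5 SCC was hybridised to single-colour Agilent arrays, with groups taken from the sample titles. The deposited scanner files, read by the authors with Agilent Feature Extraction 12, give a background-subtracted intensity per spot. The authors also deposited log2 values after quantile normalisation, which served to choose each gene's brightest probe and as an alternative. Here log2 intensity was averaged over unflagged spots and quantile-normalised over 41174 probes. A probe was tested if well above background (at least 0.5 of its spots) on at least 4 of 5 arrays of a group, which left 30374. The log2 difference between SCC and WT came from limma 3.58.1 under R 4.3.3 (two-sided, no covariates, Benjamini-Hochberg over all tested probes), in place of the authors' one-way analysis of variance, which was tried as an alternative. A bound is given for a probe dim on all arrays of a group and well above background on all 5 of the other. It is set against, per array of the dim group, the higher of the probe's own signal and the lowest signal well above background. The number of arrays limits the precision, and p-values measure only the spread between these samples, which may be technical in part.

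Probe accessions were paired with symbols through a RefSeq table (GRCm38.p6), which named 28223 probes. The array design carries another build, so only promoters have coordinates. The fit was tested on simulated data. The 10 genes, the gene lists and the tests were chosen with earlier results of these data known. The genes named are the 10, up to 4 called genes per related list with the largest difference, genes whose role bears on one of the 10, and the 5 most like Ltf. The rest of the genes named in a list were chosen for their role or after their values were seen. The list called serine proteases was drawn up as targets of SLPI, which is not established for all its genes. Alternatives were the 75th percentile scaling, normexp (offset 50), the authors' log2 values, other filters on dim probes, slide or replicate number as a block, array weights, leaving out arrays, the methods' analysis of variance, no fold requirement and other probes of a gene.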

Additional observations from a re-analysis of the deposited data

Results flagged for a closer look

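A value was taken up here where, among the 5 arrays of a group, the gap between the highest or lowest array and its nearest neighbour, as a share of the group's whole range, was above 0.71, the limit that chance passes in about 1 of 20 groups. Of 79 groups examined, 17 passed it, and 14 of these on SCC replicate 2. The gap share of Lcn2 was 0.854, with SCC replicate 2 highest. For all others on that array it was the lowest of the 5, with a share of 0.824 and 0.853 at the 2 Defb1 probes, 0.954 for Defb14, 0.915 for S100a7a, 0.900 for Wfdc5, 0.873 for S100a8, 0.872 for Duoxa2, 0.859 for Wfdc18, 0.832 for Duox1, 0.820 for Slc11a1, 0.807 for Wfdc17, 0.802 for Nod2 and 0.745 for Pglyrp3. The remaining 3 were the brightest Ltf probe, lowest on WT replicate 4 (0.756), the second Ltf probe, lowest on SCC replicate 3 (0.804), and Slc26a4, lowest on WT replicate 5 (0.899). SCC replicate 3 lay only 0.21 below the next array for that Ltf probe, since all 5 lay within 0.26 of each other. With scaling to the 75th percentile it was not the lowest, at 18.02 against 18.00 on SCC replicate 2.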

How the results depend on the processing

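Lcn2, Slpi, Pglyrp1 and Defb1 were called under each alternative that could fit them, Defb1 having no value where only probes well above background on all 10 arrays were kept, which left 3 called genes. The count was 4 to 5 as each array was left out, with Lpo added without SCC replicate 4, and 5 with the adjusted p alone, which adds Lyz1. The count over all probes, 6954, fell to 6385 when SCC replicate 3 was left out and reached 8135 when SCC replicate 2 was, and was 3969 with normexp, 2989 with slide as a fixed block and 14878 with the adjusted p alone. With the 75th percentile scaling 3504 probes were higher and 3080 lower, against 3014 and 3940, and the median difference of all tested probes moved from -0.09 to 0.03. Wfdc2 changed sign there, to 0.0068. The 42 related genes became 17 with slide as a fixed block, which rests on WT replicate 5 against SCC replicates 1 to 3, and 38 to 43 as arrays were left out. With slide as a random block 6988 probes, the same 4 of the 9 genes and 42 related genes were called. Its within-slide correlation was -0.017, so that fit is close to the one without slide. The causes were not tested. The Ltf difference was 8.35 with slide as a fixed block, 9.78 at its second probe, 9.29 as the mean of both and 8.52 to 8.91 as arrays were left out. Same-numbered WT and SCC arrays did not deviate together from their group means (correlations of -0.10 to 0.01). These values give no sign that the numbers pair the arrays and cannot exclude it. With the replicate number as a block, 6571 probes, the same 4 of the 9 genes and 40 related genes were called, and that fit changed no call among the 9. Dim probes, Camp and the WT values of Defb1 among them, are limited by signal over background.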
